A study of Mus musculus with 2 samples.

Results

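The genes described here encode the canonical, replication-dependent histones in the forebrain of mouse embryos. They were taken as the protein-coding genes, listed for both libraries, whose GENCODE M21 symbol starts with Hist1h, Hist2h, Hist3h or Hist4h, the prefixes of the 4 histone gene clusters. This gave 64 genes of 21474 protein-coding genes and 43346 listed genes in all. By histone type they comprise 6 H1, 18 H2a, 15 H2b, 12 H3 and 13 H4 genes. By cluster, 52 lie in Hist1 on chromosome 13, 9 in Hist2 on chromosome 3, 2 in Hist3 on chromosome 11 and 1 in Hist4 on chromosome 6. GENCODE M21 has 67 protein-coding genes with these prefixes, and 3 of them, Hist1h2bh, Hist1h2bm and Hist2h2bb, had no matching gene identifier in the tables.

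Both libraries belong to the same group, forebrain at embryonic day 16.5 (E16.5) from mice of the B6NCrl strain, with no altered gene or treatment named in the labels. Each library was made from a separate pool of male and female embryos, the second from 41 embryos. The starting material was 10 ng of total RNA above 200 nt, to which ERCC spike-in RNAs had been added. Summed over genes the expected counts were 31211128 and 26957198. Paired values are given throughout in the order replicate 1, replicate 2. With a single group of 2 biological replicates no comparison between conditions could be made, and no p-value was computed. In this bulk tissue, fewer dividing cells and less histone RNA per dividing cell cannot be told apart.

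Replication-dependent histones package newly made DNA and are transcribed mainly in S phase. The core types, H2A, H2B, H3 and H4, form the nucleosome, and the linker histone H1 binds the DNA where it enters and leaves. Their genes are short, mostly without introns, and repeated many times with nearly the same coding sequence. Their mature messages are unusual among messenger RNAs because they end in a conserved stem-loop, bound by the stem-loop binding protein SLBP, instead of a poly(A) tail. In the embryonic forebrain the dividing cells are the radial glia and intermediate progenitors next to the ventricles, while neurons have left the cycle. Cells outside S phase rely on replication-independent variants such as H3.3, whose messages are polyadenylated.

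The stem-loop letters were found after the coding sequence of most of these genes. The 16-base pattern was searched with 4 free positions on the transcript strand of the GENCODE M21 models, and its 5 letter variants found here are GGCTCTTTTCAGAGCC, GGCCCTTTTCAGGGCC, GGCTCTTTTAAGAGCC, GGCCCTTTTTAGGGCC and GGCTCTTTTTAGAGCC. A match occurred in 39 of the 64 histone models and in 50 of 58797 protein-coding transcripts of all genes (0.0850%). The 39 genes with it held 92.9% of the summed level of the 64 genes in replicate 1 and 91.8% in replicate 2. In the tables, 11 models are only as long as the coding sequence, and a model of that length does not reach the stem-loop. The following windows belong to the highest genes and to examples of other types and letter variants, and show the stem-loop in capitals with the 14 bases before it. All are 5′ to 3′ on the gene's strand of GRCm38 (mm10), in the exon downstream of the coding sequence, and were read from the GENCODE M21 transcripts. Their positions are chr13:21833029-21833058 (minus strand) for Hist1h2ap, chr13:21810884-21810913 (plus) for Hist1h2ao, chr13:23570668-23570697 (minus) for Hist1h2ae and chr11:58949335-58949364 (plus) for Hist3h2ba. The others are chr11:58955158-58955187 (plus) for Hist3h2a, chr13:23581936-23581965 (plus) for Hist1h4d, chr13:22040966-22040995 (minus) for Hist1h4i and chr13:23739498-23739527 (plus) for Hist1h1c.
Hist1h2ap: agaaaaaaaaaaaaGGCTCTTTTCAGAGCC
Hist1h2ao: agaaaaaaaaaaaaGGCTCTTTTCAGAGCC
Hist1h2ae: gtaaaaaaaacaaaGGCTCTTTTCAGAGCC
Hist3h2ba: gcccccaacccaaaGGCTCTTTTCAGAGCC
Hist3h2a: ttacagacaccaaaGGCTCTTTTCAGAGCC
Hist1h4d: acccaaaaaccaaaGGCCCTTTTCAGGGCC
Hist1h4i: caatgctacttaaaGGCCCTTTTTAGGGCC
Hist1h1c: ctaacaatccaaaaGGCTCTTTTCAGAGCC

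The variant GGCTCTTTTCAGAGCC was shared by 23 genes of the H1, H2a, H2b and H3 types, which summed to 1697 and 1860 TPM. The variant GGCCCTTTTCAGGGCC was found in 7 genes, all of the H4 type, with 161 and 189 TPM. A further 6 genes carried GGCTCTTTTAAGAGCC, with 10.8 and 8.53 TPM. TPM, a transcript's share of all transcripts on a fixed scale, is a level per effective length. Levels of different genes may be compared only as far as the counted model lengths and the division of shared reads hold. A longer model is given in GENCODE M21 for 16 genes, and 11 counted models hold the coding sequence only. The effect of these lengths on the levels was not tested.

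As a set, the histone genes gave a small part of the sequenced RNA. They summed to 2034 and 2267 TPM, a mean of 2151 ± 165 TPM (SD, n = 2). Together they made 0.203% and 0.227% of all TPM, and 0.0653% and 0.0696% of the counts on genes. The molecule is labelled total RNA, while the protocols listed include the manual of the SMARTer Ultra Low kit, which primes reverse transcription with oligo(dT), and the labels do not settle how these libraries were primed. Under oligo(dT) priming, messages without a poly(A) tail would be captured less well, so a low level of these genes and a low capture of their messages cannot be told apart. Detection, set at 1 TPM in each library, was reached by 38 of the 64 genes (59.4%), beside 60.7% of all protein-coding genes, so the share detected was near the background. The higher level of 10 TPM was reached in both by 15 genes (23.4%), beside 40.9% of all protein-coding genes. The median histone gene had a mean level of 2.44 TPM, and the median protein-coding gene 5.05 TPM. Below 1 TPM in both libraries were 15 genes, and 11 were above it in 1 library only.

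The summed level rested on very few genes. Hist1h2ap alone held 52.1% of it in replicate 1 and 51.4% in replicate 2, and the 5 highest genes, Hist1h2ap, Hist3h2ba, Hist1h4d, Hist3h2a and Hist1h2ae, held 83.9% ± 1.09 (SD, n = 2). By type, H2a genes held 66.0% ± 0.115 of the summed TPM, H2b genes 18.8% ± 0.880, H4 genes 9.14% ± 0.258, H3 genes 4.09% ± 0.280 and H1 genes 1.97% ± 0.226 (SD, n = 2 for each). The order of the types by TPM was the same in both libraries, and neighbouring types differed by more than the spread between the libraries. In counts, which are not per length, H1 genes held more (3.56%) than H3 genes (3.08%). In each type 1 gene stood far above the rest or shared the lead with a second. The leading gene of a type held 79.1% and 77.9% of the H2a level (Hist1h2ap), 83.1% and 79.8% of the H2b level (Hist3h2ba), 81.0% and 82.8% of the H4 level (Hist1h4d), and 49.6% and 50.1% of the H3 level (Hist1h3i). Among the H1 genes Hist1h1e held 39.5% and 45.6%, close to Hist1h1c with 37.0% and 39.0%. By cluster, Hist1 held 74.3% ± 1.46 of the summed TPM, the 2 Hist3 genes 21.3% ± 1.56, the 9 Hist2 genes 4.33% ± 0.0984 and the Hist4 gene 0.0278% ± 0.00313 (SD, n = 2 for each).

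**Figure D1:**
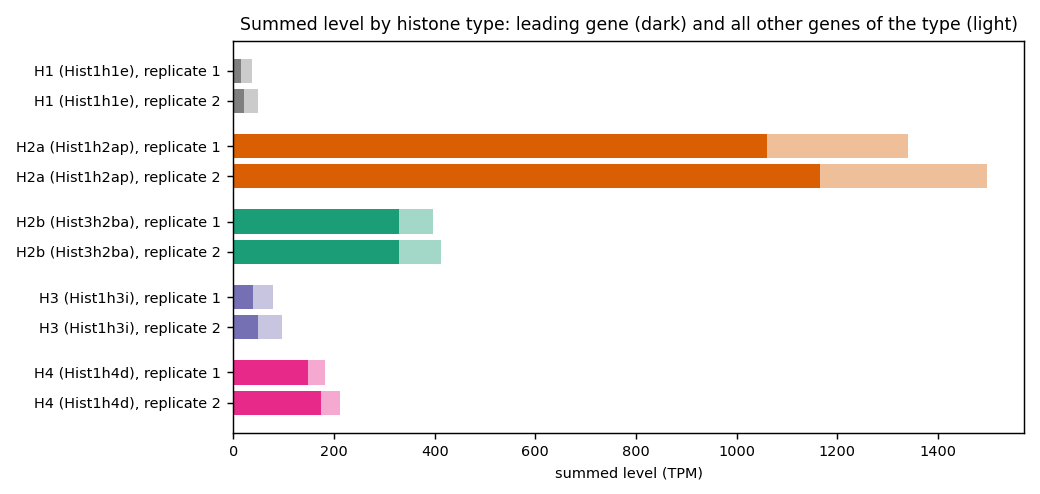
Summed level (TPM) of each histone type in each library, with the leading gene of the type in dark and its other genes in light colour. H2a reaches 1340 and 1497 TPM, most of it from Hist1h2ap, while the H1 genes sum to 36.8 and 48.3 TPM.

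The H2a genes spanned the widest range. Hist1h2ap (chromosome 13, 21833026 to 21833507, minus strand, a single exon of 482 nt) was at 1060 and 1166 TPM, from 7620 and 7036 expected counts. It ranked 58th among protein-coding genes by mean level. Hist3h2a (chromosome 11, 58954685 to 58956830, plus strand), the H2a gene of the Hist3 cluster, was at 128 and 129 TPM. Hist1h2ae (chromosome 13, 23570517 to 23571220, minus strand) was at 57.1 and 84.0 TPM, higher in replicate 2. Hist2h2aa2 was at 28.2 and 38.1 TPM and its copy Hist2h2aa1 at 21.2 and 16.5 TPM, so the 2 copies differed between libraries in opposite directions. Their coding sequences were identical, and the authors' posterior SD of the count was 18.5% and 13.5% of its mean for Hist2h2aa2 and 20.01% and 24.3% for Hist2h2aa1. The deposited maximum likelihood level of Hist1h2ap lay above the upper bound of the authors' own interval, 1049 and 1150 TPM, and that of Hist3h2a lay just above its bounds of 127 and 128 TPM.

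At the low end of the H2a type, Hist1h2aa, a testis-enriched H2a, had 1 count in replicate 1 and 0 in replicate 2. Hist2h2ab, Hist1h2ah and Hist1h2ao were listed at 0 in both libraries. The coding sequence of Hist1h2ao was identical to that of Hist1h2ap over all 390 bases compared, and the 30-base windows printed above were the same. The division of reads between these copies was made by the authors' model, and the authors' interval for Hist1h2ao reached up to 7.43 TPM.

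The H2b genes were led by Hist3h2ba (chromosome 11, 58948920 to 58949533, plus strand), an H2b gene of the Hist3 cluster, at 329 and 330 TPM. No 100-base stretch of its model occurred in another of the 64 genes. Hist1h2bc (chromosome 13, 23684199 to 23692908), which has a model of 2 exons, was next at 41.7 and 54.3 TPM. Hist2h2be, known for a long polyadenylated message in non-dividing cells, was at 7.12 and 9.16 TPM. Hist1h2bg was at 1.66 and 4.76 TPM. The lowest was Hist1h2ba, a testis-enriched H2b, with 0 counts in both libraries.

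Of the H3 genes, Hist1h3i (chromosome 13, 21782960 to 21783370, minus strand) was at 39.3 and 48.7 TPM. Hist2h3b followed at 19.2 and 20.8 TPM, Hist1h3d at 5.65 and 7.20 TPM, and Hist1h3b at 4.87 and 3.03 TPM. The lowest was Hist1h3f at 0.510 and 1.16 TPM. H3.1 and H3.2, the canonical H3 proteins, differ at a single residue, a cysteine in H3.1 and a serine in H3.2. Codon 97, counted from the start codon as 1, begins TG in 4 genes (Hist1h3a, Hist1h3g, Hist1h3h and Hist1h3i) and TC or AG in the other 8, and the genes were grouped by it. The H3.1 genes summed to 43.4 and 55.2 TPM and the H3.2 genes to 35.9 and 42.0 TPM, which made H3.1 55.8% ± 1.45 (SD, n = 2) of the H3 level. The H3.1 total came mostly from Hist1h3i, whose counted model of 411 nt is only the coding sequence. Without Hist1h3i, the other 3 H3.1 genes made 10.1% and 13.4% of the remaining H3 level. In counts the order was the opposite, with H3.1 at 44.4% and H3.2 at 55.6%.

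The H4 genes were led by Hist1h4d (chromosome 13, 23581598 to 23582735, plus strand) at 148 and 175 TPM, from 815 and 811 expected counts. Its sequence had no 100-base stretch in common with another of the 64 genes. Its model in the tables is 393 nt long and its model in GENCODE M21 1138 nt, and the effect of this difference on its level was not tested. Hist1h4i followed at 11.8 and 11.8 TPM, Hist2h4 at 6.96 and 7.54 TPM and Hist1h4n at 5.26 and 4.99 TPM. These 3 differed between libraries by less than their counting error. Hist4h4, the only gene of its cluster, was at 0.520 and 0.680 TPM. Hist1h4a and Hist1h4m had 0 counts in both libraries, and the coding sequence of Hist1h4m was identical to that of Hist1h4n.

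The linker histones were low as a type. Hist1h1e (H1.4; chromosome 13, 23620629 to 23622558, minus strand) was at 14.5 and 22.01 TPM, and Hist1h1c (H1.2) at 13.6 and 18.8 TPM. Hist1h1b (H1.5) was at 6.45 and 5.52 TPM, Hist1h1d (H1.3) at 1.21 in both, and Hist1h1a (H1.1) at 0.980 and 0.580 TPM. Hist1h1t, the testis H1, had 0 counts in replicate 1 and 1 count in replicate 2. The 2 leading genes, Hist1h1e and Hist1h1c, were both higher in replicate 2, and Hist1h1b was lower.

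**Figure D2:**
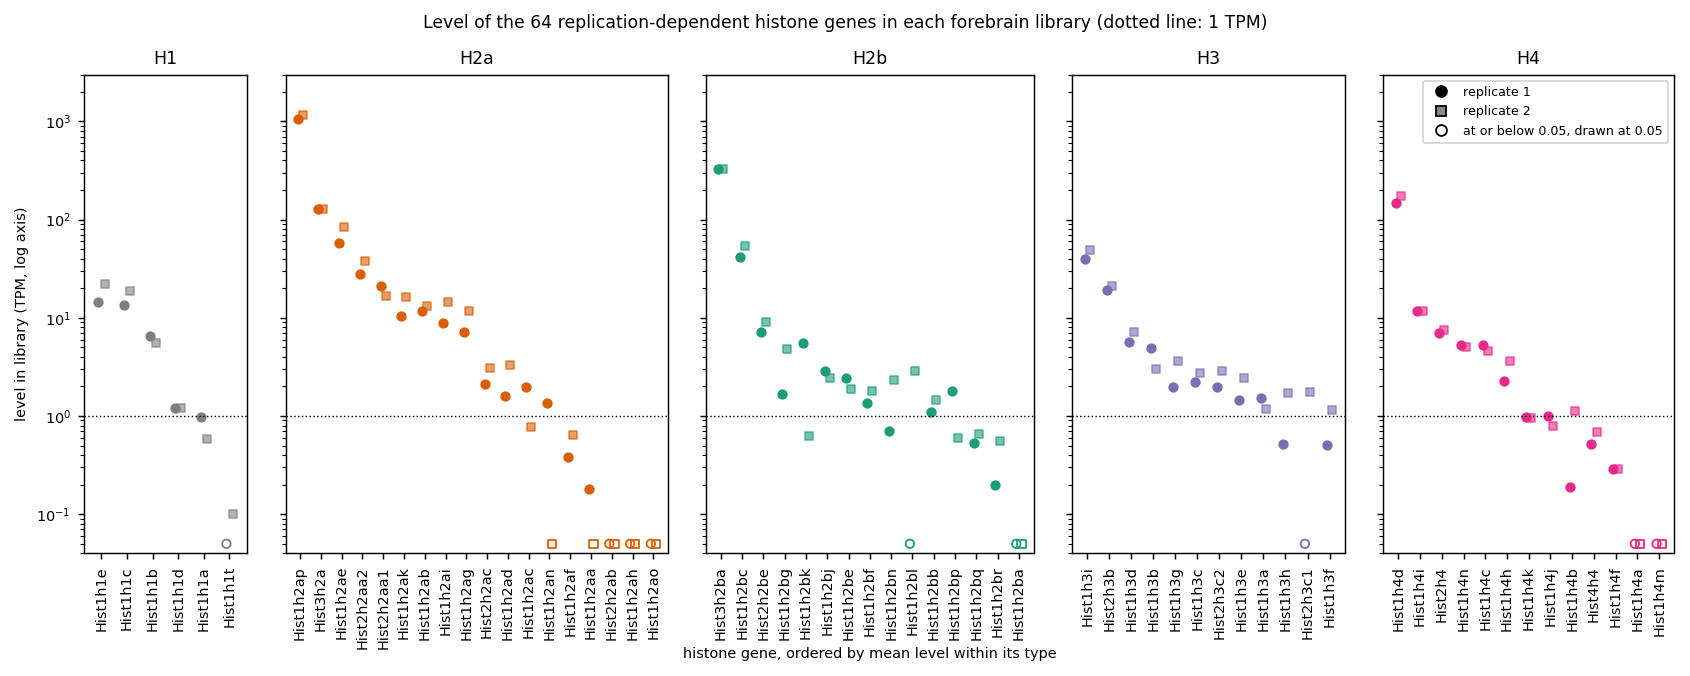
Level (TPM, log axis) of each of the 64 histone genes in replicate 1 (circles) and replicate 2 (squares), by type and ordered by mean level, with levels at or below 0.05 TPM drawn open at 0.05. Apart from H1, whose first genes are close, the levels of each type fall steeply from the leading gene, Hist1h2ap being highest at 1060 and 1166 TPM, and the libraries differ most among genes of a few TPM or less.

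Altogether 6 of the 64 genes had 0 counts in both libraries: Hist2h2ab, Hist1h2ah, Hist1h2ao, Hist1h2ba, Hist1h4a and Hist1h4m. The upper limit for such a gene, 3 counts, lay between 0.363 and 0.668 TPM and covers counting error only. Reads shared by near-identical copies are divided by the authors' model, and such a split can leave a copy at 0. Of 100-base stretches of the models, over 50% also occurred in another of the 64 genes for 23 genes, which held 59.9% and 59.6% of the summed TPM. In 10 genes none was in common with another, and these held 30.8% and 29.0%: Hist3h2ba, Hist1h4d, Hist3h2a, Hist2h2be, Hist2h4, Hist1h1b, Hist1h1a, Hist4h4, Hist1h2aa and Hist1h1t. Overlaps with other annotated genes add a second ambiguity, since strand was not stated for the counting. In GENCODE M21 an exon on the opposite strand overlapped 20 of the genes, all 18 H2a genes among them. Only 5 of the genes on the opposite strand had a measured level, the highest being Gm20632 at 1.05 and 1.82 TPM. Those opposite Hist1h2ap and Hist3h2a had none. Hist1h1e and Hist1h2be overlap on the same strand.

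Hist1h2be, Hist1h2bp, Hist1h2bq and Hist1h2br were listed with 2 or more transcripts. The leading transcript of Hist1h2be, a processed transcript without the stem-loop motif, took 75.0% of the gene in replicate 1 and 72.6% in replicate 2. By maximum likelihood the remaining 25.1% and 27.4% went to a different transcript in each library. By posterior mean both held a part in each, 19.4% and 13.0% for the former, 7.03% and 16.3% for the latter. The gene's level was 2.45 and 1.87 TPM. Hist1h2bp, at 1.80 and 0.60 TPM, had 73.2% and 100% in its short stem-loop transcript (69.11% and 80.65% by posterior mean). Hist1h2br, at 0.200 and 0.560 TPM, had only 7.78 and 10.29 expected counts. By maximum likelihood it was given wholly to 1 transcript in replicate 1 and wholly to the other in replicate 2. By posterior mean both transcripts held a part in each library, 53.84% and 29.8% for the former, 46.16% and 70.2% for the latter.

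With the priming unsettled, the level of each gene was set beside adenine runs and the polyadenylation hexamer in its GENCODE M21 model, features chosen after the levels had been seen. A run of 8 or more adenines occurred in 6 histone models: 15 in Hist1h2ac, 12 each in Hist1h2ap and Hist1h2ao, and 8 each in Hist1h2ae, Hist1h2bc and Hist1h1d. Among all protein-coding transcripts 17.7% had such a run. The 6 genes held 57.1% and 57.6% of the summed TPM, most of it from Hist1h2ap, in whose window above the 12 adenines stand directly before the stem-loop. The hexamer AATAAA, the usual signal for polyadenylation, stood in the last 40 bases of 14 histone models, beside 39.3% of all protein-coding transcripts. These 14 held 26.8% and 25.8% of the summed TPM, mainly Hist3h2ba and Hist3h2a. Together, 19 genes had at least 1 of these features and held 81.2% and 79.7% of the summed TPM. The share of all protein-coding transcripts with at least 1 of them was not computed. The other 45 held 18.8% and 20.3%, led by Hist1h4d.

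Genes with a feature were not uniformly high. Hist1h2ac, with the longest run, was at 1.98 and 0.770 TPM. At 1 TPM in both libraries 10 of the 19 genes with a feature were detected. This stands beside 28 of the 45 without and 60.7% of all protein-coding genes. The 19 include copies such as Hist1h2ao, whose level depends on the division of shared reads. The median of the mean levels was 1.38 TPM over the 19 genes with a feature and 2.47 TPM over the 45 without. Several of the models are longer in GENCODE M21 than in the tables, so a run can lie beyond the model that was counted. The part of these features in the levels was not tested.

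**Figure D3:**
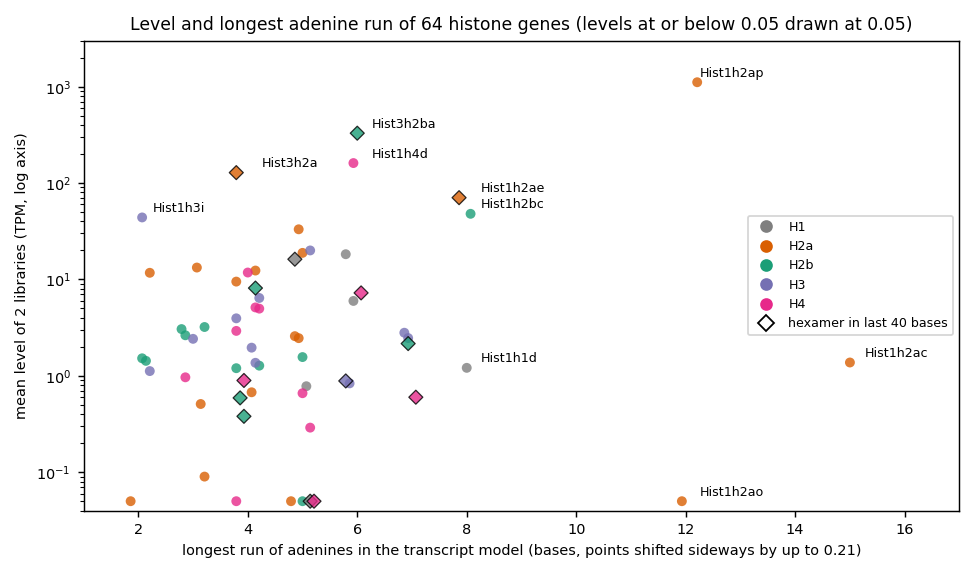
Mean level of 2 libraries (TPM, log axis) of the 64 histone genes against the longest run of adenines in the GENCODE M21 model (bases, points shifted slightly sideways), coloured by type, with diamonds for models that hold the polyadenylation hexamer in their last 40 bases. Hist1h2ap combines a 12-base run with the highest level, while Hist1h2ao has the same run at 0 and Hist1h2ac has a 15-base run near 1 TPM. Reads shared by Hist1h2ap and Hist1h2ao, whose coding sequences are identical, were divided by the authors' model. The counted model of Hist1h2ac was 476 nt long, and its GENCODE M21 model is 2482 nt.

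Many H2a and H2b genes lie head to head and share the stretch between their starts. In 12 such pairs the starts lay 176 to 306 bp apart on opposite strands. The H2a gene was higher in both libraries in 6 pairs and the H2b gene in 5, and the pair Hist1h2aa and Hist1h2ba met neither condition. By posterior mean TPM the H2a gene was higher in 7 pairs. Hist1h2ao, listed at 0, was then at 2.56 and 2.46 TPM, above its partner Hist1h2bq at 0.52 and 0.54 TPM. Pairs with levels this low depend on how reads shared by copies are divided. The levels within a pair were often far apart. Hist1h2ap was at 1060 and 1166 TPM and its partner Hist1h2br at 0.200 and 0.560 TPM. Hist1h2ae was at 57.1 and 84.0 TPM and its partner Hist1h2bg at 1.66 and 4.76 TPM. The opposite held for Hist1h2ac, at 1.98 and 0.770 TPM, and its partner Hist1h2bc, at 41.7 and 54.3 TPM. Close levels were seen for Hist1h2ad at 1.60 and 3.32 TPM with Hist1h2bf at 1.35 and 1.78 TPM.

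**Figure D4:**
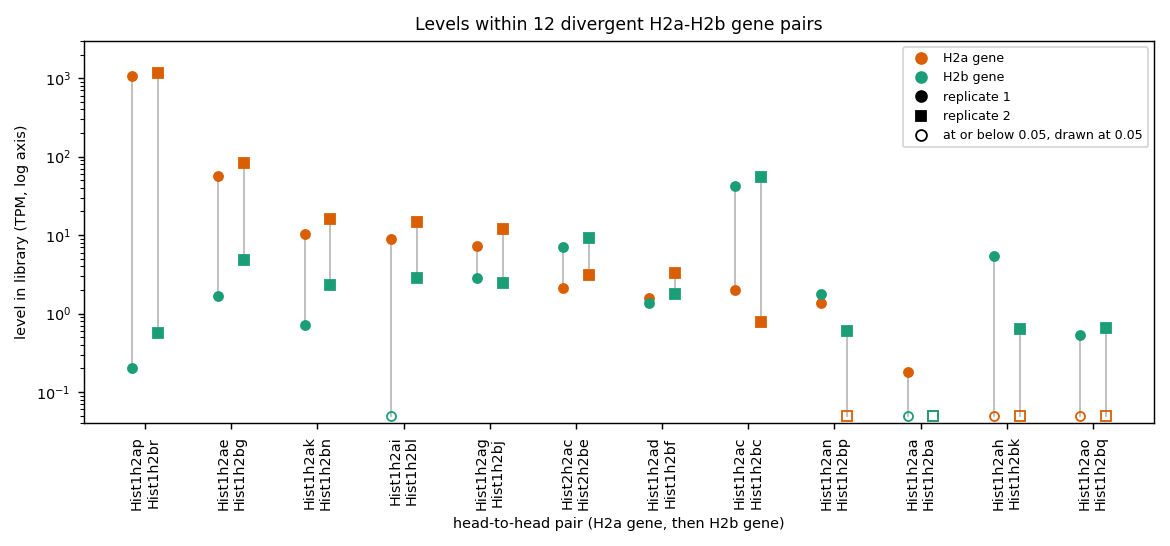
Levels (TPM, log axis) of the H2a gene (orange) and the H2b gene (green) of 12 divergent pairs in replicate 1 (circles) and replicate 2 (squares), ordered by the level of the H2a gene. Grey lines join the genes of a pair in the same library, and the gap is widest for Hist1h2ap and Hist1h2br.

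Promoter sequences from RefSeq (GRCm38.p6, 250 bases before to 50 after each start) were matched to 59 of the 64 genes. The promoters of Hist2h4, Hist1h2bc, Hist1h3f, Hist1h3a and Hist2h2be were not matched. Short motifs were searched on both strands, and overlaps between motifs were not removed. CCAAT was found in 50 of the 59 histone promoters (84.7%) and in 37.4% of all 32851 promoters. It was in each promoter matched for H1, H2a, H2b and H3 genes, and in 3 of 12 for H4 genes. TATAAA was found in 35 histone promoters (59.3%) and in 13.6% of all. AAACACA, the H1 box, was in 5 of 6 H1 promoters and in 7.18% of all. GGTCC, an H4 promoter element, was in 11 of 12 H4 promoters but also in 45.5% of all.

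ATTTGCAT, the octamer bound by POU factors such as the product of Pou2f1, was found in 7 of 18 H2a promoters and 4 of 13 H2b promoters, in no H1, H3 or H4 promoter matched, and in 1.74% of all. For 3 of the 12 head-to-head pairs the same octamer was found from both sides. Windows for a pair of unequal levels and for Hist3h2a are printed 5′ to 3′ on the strand of the named gene, with the octamer or its reverse complement in capitals. The first pair of windows is the same site, chr13:23571330-23571359, read on the minus strand for Hist1h2ae and on the plus strand for Hist1h2bg, and the window of Hist3h2a is chr11:58954555-58954584 on the plus strand, all in GRCm38.p6.
Hist1h2ae: atagaggttctATGCAAATaagggactcaa
Hist1h2bg: ttgagtcccttATTTGCATagaacctctat
Hist3h2a: gggtaaggcatATGCAAATtaggaaggctc

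Of the genes with the octamer, Hist3h2a and Hist1h2ae were among the 5 highest histone genes, and Hist1h2aa, Hist1h2ah and Hist1h2ba were at or near 0. The promoter of Hist1h2ap did not hold these 8 letters. A match of letters is a description and not a measured binding site.

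The pools were then compared for each gene with a mean of at least 50 counts, as a log2 ratio of scaled counts, replicate 2 minus replicate 1. Of the 64 genes 22 reached 50 counts. Their median log2 ratio was 0.26, beside 0.01 over all 13929 genes with as many counts, and 17 were higher and 5 lower in replicate 2. A ratio above 0 was found for 52.1% of all genes. Of the histone genes 0 were at least 2-fold apart with a 95% exact Clopper-Pearson counting interval that left out equality, beside 1.37% of all genes (0.366% higher and 1.01% lower in replicate 2). At least 1.5-fold apart were 3, Hist1h2ag, Hist1h2ai and Hist1h2ak, all higher, beside 6.59% of all genes (1.9% higher and 4.69% lower). For 12 genes the interval lay above 0, beside 26.5% of all genes, and for 1 it lay below 0, beside 24.1%. Together this was 59.1% of the histone genes and 50.5% of all genes. The counts of the 64 genes summed to a log2 ratio of 0.12 (interval 0.09 to 0.14), below the median of the genes, and the 3 most abundant genes lay between -0.01 and 0.23. The scaling assumes that most genes are level between pools. Scaled on the spike-ins, all ratios rose by 0.55, the median of all genes stood at 0.56 and all 22 histone genes were higher in replicate 2, so directions here are relative to the other genes.

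Hist1h2ap had a log2 ratio of 0.12 (counting interval 0.07 to 0.17), Hist3h2a of 0.00 (-0.06 to 0.06) and Hist3h2ba of -0.01 (-0.09 to 0.06). Hist1h4d had a log2 ratio of 0.23 (0.09 to 0.37). Larger ratios were found at middle levels, with 0.58 for Hist1h1e (0.29 to 0.87), 0.54 for Hist1h2ae (0.34 to 0.74), 0.45 for Hist1h1c (0.25 to 0.66), 0.36 for Hist1h2bc (0.19 to 0.54) and 0.35 for Hist2h2be (0.13 to 0.56). The highest were Hist1h2ai and Hist1h2ag, both at 0.70. For these 2 the authors' posterior SD was between 22.6% and 31.6% of the count, so the split among copies was unsure. Hist2h2aa1 was the 1 gene with an interval below 0, at a log2 ratio of -0.37 (-0.71 to -0.05), while Hist2h2aa2, with the same coding sequence, was at 0.41 (0.15 to 0.68). For these copies the posterior SD was between 13.5% and 24.3% of the count, so their split was unsure as well, and the intervals leave this out. By type, the medians were 0.45 over 3 H1 genes, 0.41 over 9 H2a genes, 0.17 over 4 H2b genes, 0.29 over 3 H3 genes and 0.10 over 3 H4 genes.

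Of the 42 genes below 50 counts, 5 had 0 counts in 1 library only: Hist1h1t, Hist1h2aa, Hist1h2an, Hist1h2bl and Hist2h3c1. Hist1h1t and Hist1h2aa had 1 count in the other library. The same share over all genes below 50 counts was not computed, so this is no trait of the histone genes. Hist2h3c1 was at 0 and 1.77 TPM, Hist1h2bl at 0 and 2.86 TPM, and Hist1h2bk at 5.48 and 0.630 TPM. Each of these 3 shares sequence with other copies.

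Genes that act on histone genes and messages were measured in the same libraries. All 12 genes listed for histone gene transcription were detected, and their median level was 19.2 TPM. The highest were Nfyc at 85.6 ± 7.28 TPM and Nfyb at 55.9 ± 8.33 TPM, subunits of the factor that binds CCAAT boxes, and Casp8ap2, which acts at histone locus bodies, at 49.8 ± 4.71 TPM (SD, n = 2 for each). Npat, the coactivator of histone genes at those bodies, was at 10.13 and 11.95 TPM. The lowest was Gon4l at 10.7 ± 1.53 TPM. The median log2 ratio of the 12 was 0.20, with 9 higher and 3 lower in replicate 2, from Gon4l at -0.31 to Cdk2, the kinase that activates NPAT, at 0.37.

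For processing and decay of histone messages 15 listed genes were matched, of which 14 were detected, and their median level was 42.02 TPM. Slbp was highest at 108 and 112 TPM, followed by Ncbp2 of the cap-binding complex at 102 ± 3.85 TPM and Cpsf3, the nuclease that cuts after the stem-loop, at 89.1 ± 4.72 TPM (SD, n = 2). Lsm11 of the U7 particle, which pairs with histone precursors, was at 10.3 ± 1.11 TPM and had the lowest log2 ratio of the list, -0.26. Zfp473 was lowest at 1.20 ± 0.389 TPM and had the highest ratio, 0.47. The median log2 ratio was 0.09, with 11 higher and 4 lower in replicate 2.

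The replication-independent variants, used outside S phase as well, were higher in sum than the canonical genes of the same type. The 11 variants, all detected, summed to 7268 and 7942 TPM. H3f3a, which encodes H3.3, was at 2942 ± 107 TPM, H3f3b, which encodes the same protein, at 2014 ± 148 TPM, and H2afz (H2A.Z) at 1043 ± 101 TPM (SD, n = 2 for each). H1fx was lowest at 16.0 ± 0.990 TPM. Set beside the canonical genes of the same type, the H3 variants (H3f3a, H3f3b and Cenpa) summed to 61.2 times the 12 H3 genes in replicate 1 and 53.7 times in replicate 2. The ratio was 8.59 and 7.29 for H1, and 1.57 and 1.58 for H2a. Most variant messages carry a poly(A) tail, so with the priming unsettled these ratios cannot be told apart from a difference in capture. In the median these variants had a log2 ratio of 0.13 between pools, with 10 higher and 1 lower in replicate 2, from H2afj at -0.01 to Cenpa, the centromeric H3, at 0.32.

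Genes of DNA replication and of histone assembly had higher measured median levels than the canonical histone genes, with the same limit, since their messages are polyadenylated. In sum the S phase genes reached 1121 and 1286 TPM and the histone chaperones 2406 and 2561 TPM. The 64 histone genes summed to 2034 and 2267 TPM, above the former and below the latter. The 24 S phase genes were all detected, with a median of 41.8 TPM, led by Mcm7 at 153 ± 13.2 TPM, Pcna at 150.0 ± 18.3 TPM and Rrm2 at 129 ± 20.3 TPM (SD, n = 2 for each). Their median log2 ratio was 0.13, with 21 higher and 3 lower in replicate 2, from E2f1 at -0.15 to Rrm2 at 0.34. The 21 histone chaperones were all detected, with a median of 79.8 TPM, led by Rbbp4 at 344 ± 33.8 TPM, Nap1l4 at 283 ± 6.39 TPM and Atrx at 270 ± 0.693 TPM, and lowest for Ubn1 at 10.3 ± 0.629 TPM. Their median ratio was 0.10, with 18 higher and 3 lower, from Cabin1 at -0.16 to Asf1b at 0.42. Of 7 germline histones, 4 had 0 counts in both libraries and 2 had 1 count in replicate 1. The seventh, H3f3c, was listed at 535 ± 87.0 TPM (SD, n = 2) and resembles H3f3a and H3f3b, so its level is uncertain.

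Marker lists of other cell types also differed between the pools. All 10 forebrain markers were detected, with a median log2 ratio of 0.20, and all 10 were higher in replicate 2. Of 7 midbrain and hindbrain markers 1 was detected, Gbx2 at 6.80 and 3.54 TPM, and Hoxa2, Hoxb2 and Hoxb4 had 0 counts in both libraries. Below detection, En1 had 1 and 13 counts, Pax5 3 and 13, and En2 0 and 2, each more in replicate 2. All 7 erythroid, 6 microglia and 5 endothelial markers were detected. The erythroid markers summed to 10593 and 13409 TPM, the microglia markers to 66.5 and 88.8 TPM, and the endothelial markers to 125 and 149 TPM. The 6 markers of meninges and connective tissue, 5 of them detected, summed to 194 and 454 TPM. The 5 cartilage and bone markers, of which only Col2a1 was detected, summed to 16.3 and 53.8 TPM. Each gene of both lists was higher in replicate 2. Their part in the ratios of the histone genes was not tested.

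**Figure D5:**
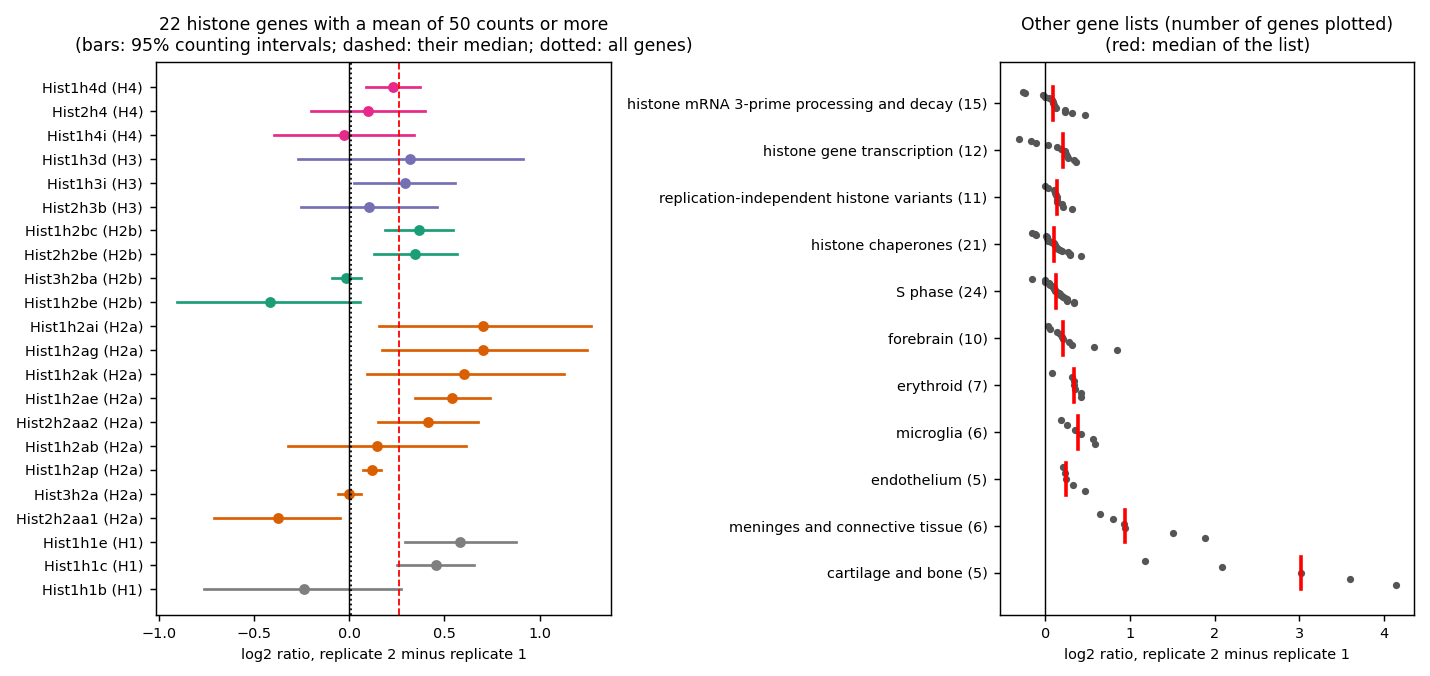
Log2 ratio, replicate 2 minus replicate 1, for 22 histone genes with their 95% counting intervals (left), and for the genes of other lists (right, 1 point a gene, red bar for the median). The histone genes lie between -0.41 and 0.70 with a median of 0.26, and the connective tissue and cartilage lists lie farthest to the right.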

How the data were processed

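Each library came with gene and transcript tables. The submitters' notes name mm10 and GENCODE M4. The aligner is not given in the sources used here. Expected counts, without normalization, were deposited by the authors, per the file headers. The authors also deposited maximum likelihood and posterior mean TPM, scaled over all features with the spike-ins (5.93% and 4.10% of TPM), and FPKM, per the file headers. The same tables hold each transcript's percent of its gene, the authors' interval bounds of TPM (a signal of at least 0) and the authors' posterior SD of counts (a score).

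Symbols came from GENCODE M21 by gene identifier without version (42462 of 43346 matched). Expected counts were rounded and scaled by edgeR 4.0.16 TMM factors, with a prior count of 0.5. Ratios needed a mean of 50 counts, and calls a 2-fold ratio and a 95% Clopper-Pearson interval without equality. Intervals cover counting error only, and reads that the model divides between copies are not independent. The procedure was tested on simulated counts with counting error only. These held no variation between pools and no reads shared by copies, so the calls were not tested for near-identical genes. Alternatives included DESeq2 1.42.0 size factors. H3 genes were grouped by codon in place of the planned protein table, which was not used here. Zcchc11 and Zcchc6 of the processing list were not matched. The histone genes, the lists and the naming rule were chosen with earlier results of these data known. The rule names the 4 highest genes and the lowest of each type, all H1 genes, genes at 0, genes called 2-fold apart, genes with a special transcript or tissue, genes with several transcripts, genes with printed sequence, and for lists the 3 highest, the lowest and the largest ratio each way. A value that this rule calls for is not reported here. Other genes, Npat and Hist1h2ai among them, were named after their values were seen. Python 3.11.15 was used with pandas 2.3.3, scipy 1.17.1 and matplotlib 3.10.9.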

Additional observations from a re-analysis of the deposited data

Results flagged for a closer look

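A further 3 histone entries lie outside the 64 genes because of their identifier or type, yet lay above the level that a count of 0 allows (at most 0.675 TPM) in both libraries. The entry under another identifier whose transcript GENCODE M21 assigns to Hist2h2bb had 2.68 and 3.88 TPM, a mean of 3.28 TPM. Another entry with a Hist1h2br transcript had 2.92 and 1.57 TPM, a mean of 2.245 TPM, above the Hist1h2br gene among the 64. The pseudogene Hist3h2bb-ps had 2.98 and 2.97 TPM, a mean of 2.975 TPM.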

How the results depend on the processing

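Of 102 alternative values for 21 results, 74 stayed within the width set for their result, 28 moved further, and 0 changed sign. That width was the SD between the libraries for sums and shares and 1.5 times for counts. For log2 ratios it was the counting error of the summed counts. Leaving out either library cannot move a sum or share past that SD, so these values stayed within it by construction. Only log2 ratios could have changed sign. At 5 TPM in both libraries, 21 histone genes were detected (32.8%), beside 49.03% of all protein-coding genes. By expected counts, which favour long genes, the shares were 3.56% for H1, 66.5% for H2a, 20.5% for H2b, 3.08% for H3 and 6.41% for H4, and H3.1 held 44.4% of H3, so the order of H1 and H3 and that of H3.1 and H3.2 turned. By posterior mean TPM the H2a share was 65.8%. The median log2 ratio of the histone genes was 0.81 on the spike-in scale, 0.30, 0.35 and 0.32 with a mean of 20, of 200 and with no minimum of counts, and 0.23 from posterior mean counts. At least 2-fold apart were 6 genes on the spike-in scale (3.85% of all genes), 3 with a mean of 20 counts (3% of all), 5 with no minimum (4.47% of all), and 3 at 1.5-fold. On the spike-in scale the list medians were 0.64 for processing and decay, 0.76 for transcription, 0.68 for variants, 0.66 for chaperones, 0.68 for S phase and 0.87 for germline histones. Scaled by library total they were 0.068 for processing and decay, 0.11 for variants, 0.081 for chaperones and 0.10 for S phase. The leading Hist1h2bq transcript held 69.4% by posterior mean, in place of 100%. The cause of these shifts was not tested. Leaving out either library gave 43 to 44 detected genes and sums of 2034 to 2267 TPM. No paired analysis was possible because the series holds 1 group. Without a minimum, the 5 genes called (Hist1h2an, Hist1h2bg, Hist1h2bk, Hist1h2bl and Hist2h3c1) differed by more than counting error, and each shares sequence with other copies.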
